A study of Mus musculus with 18 samples.

Results

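The proteasome genes of mouse liver were taken as all loci with a gene identifier whose symbol starts with Psma, Psmb, Psmc, Psmd, Psme, Psmf or Psmg, leaving out symbols with the pseudogene mark -ps. This gave 52 loci of 49 genes among 31099 loci with an identifier. Psmd11 was listed at 3 loci and Psmf1 at 2. Of the 52 loci 50 held enough counts to be tested, and 2 held 0 counts in all 18 libraries, namely Psmd7, which lies wholly inside Nfat5 on the other strand, and the third Psmd11 locus. Psmc3ip shares the start of the symbol but is a factor of meiotic recombination, not a proteasome subunit, and it is counted among the loci and described apart.

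RNA came from livers of 8-week-old mice on a mixed background of C57BL/6 and SV129, either wild type (WT, Ppara+/+) or Ppara-null (KO, Ppara-/-). Mice of each genotype were fed a normal diet (control), chow with 0.1% Wy14,643 (Wy) or chow with 0.5% fenofibrate for 48 h. Wy and fenofibrate both activate PPARA, the nuclear receptor of fatty acids that the null mice lack. There were 3 libraries in every one of the 6 groups. RNA of 3 to 5 livers was pooled for a library, so the spread given below is between pools and not between mice.

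The proteasome degrades proteins that carry ubiquitin chains. Its core is a barrel of alpha and beta rings, with the protease sites inside on the beta subunits Psmb5, Psmb6 and Psmb7, and its cap recognises, unfolds and feeds in the substrate. Interferon exchanges the protease subunits for Psmb8, Psmb9 and Psmb10, which makes the immunoproteasome, a form that cuts peptides for display on class I molecules. In mammalian cells genes of the constitutive subunits are raised together by NRF1 (Nfe2l1), which binds the antioxidant response element, a short sequence that NRF2 (Nfe2l2) binds too.

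Promoters of 3 members are shown because these genes carry the contrast described below, with Psmd4 the member that rose most, and Psmb5 and Psmb8 the constitutive and interferon-induced subunits that hold the same position in the ring. The sequences are those of RefSeq on GRCm38.p6, each running from 250 bases before to 50 after the annotated start, 5′ to 3′ on the gene's strand. Psmd4 is at chr3:95042565-95042864 (minus strand), Psmb5 at chr14:54617946-54618245 (minus strand) and Psmb8 at chr17:34197945-34198244 (plus strand), and the deposited Psmb8 locus begins upstream of the RefSeq start. Capitals mark letters that match a searched motif, which is an interferon-stimulated response element on the other strand in Psmd4 and an antioxidant response element in Psmb5. The Psmb8 window held no match to a motif given here.
Psmd4: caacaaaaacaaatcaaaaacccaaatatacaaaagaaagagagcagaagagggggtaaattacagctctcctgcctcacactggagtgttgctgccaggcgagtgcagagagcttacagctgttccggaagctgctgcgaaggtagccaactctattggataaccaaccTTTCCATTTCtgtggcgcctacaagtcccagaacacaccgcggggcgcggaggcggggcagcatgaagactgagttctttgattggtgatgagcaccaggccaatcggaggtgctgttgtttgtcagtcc
Psmb5: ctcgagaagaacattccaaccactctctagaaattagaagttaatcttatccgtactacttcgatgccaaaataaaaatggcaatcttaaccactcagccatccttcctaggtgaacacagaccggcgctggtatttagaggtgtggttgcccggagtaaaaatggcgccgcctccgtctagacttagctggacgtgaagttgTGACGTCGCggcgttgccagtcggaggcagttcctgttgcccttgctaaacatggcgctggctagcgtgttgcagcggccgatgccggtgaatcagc
Psmb8: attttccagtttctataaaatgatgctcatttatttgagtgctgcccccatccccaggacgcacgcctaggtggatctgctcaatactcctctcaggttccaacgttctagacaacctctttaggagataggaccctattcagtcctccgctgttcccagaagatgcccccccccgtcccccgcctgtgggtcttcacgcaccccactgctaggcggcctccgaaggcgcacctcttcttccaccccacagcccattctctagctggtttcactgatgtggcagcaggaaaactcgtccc
A RefSeq promoter was found for 41 of the 49 member genes. A gene with more than 1 window counted as matched when any of its windows matched. The antioxidant response element was searched as TGACNNNGC on both strands. It matched 4 of the 25 constitutive core and cap genes with a promoter (16%), against 14% of all 27025 genes with one. The interferon-stimulated response element, searched as GAAA and GAAA with any 2 bases between, matched 2 of these 25 (8%) against 3.99% of all, and 0 of the 3 immunoproteasome genes. The windows of Psmb8 and Psmb9 lay wholly inside the deposited loci, so sequence before the deposited starts of these genes was not searched. The PPARA-type direct repeat, AGGTCA and AGGTCA with any 1 base between, matched 0 of the 41 and 0.0481% of all genes with a promoter. The matches are descriptions of these windows, and a window without a match says only that these letters are not there.

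In all, 2 opposite movements were seen in WT liver with either drug. Of the 50 tested loci 36 rose with Wy, against 20.2% of all 14241 genes tested, and 35 rose with fenofibrate, against 19.3% of all genes. The 3 that fell with each drug were the 3 immunoproteasome subunits, where 19% of all genes fell with Wy and 17.6% with fenofibrate. The 11 loci not called with Wy included all 4 core assembly chaperones, Psme2, Psme3 and Psmd10. In bulk liver, fewer cells of a type and less RNA per cell cannot be told apart. Both drugs were set against the same 3 WT control libraries, so their results are not independent of each other. Calls are edgeR quasi-likelihood tests with Benjamini-Hochberg adjustment over all genes, at 0.05. Levels are CPM, counts scaled to the same effective library size, and changes are log2 fold changes ± SE relative to the bulk of genes, whose median change was -0.02 with Wy and 0.01 with fenofibrate.

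Libraries held 68.9 to 151 M counts, of which the loci of major urinary proteins took 46.0% to 71.4% and the proteasome loci 0.0883% to 0.353%. Across genes, r between replicate libraries was 0.987 to 0.997. Ppara itself was counted at 5214 to 9045 in WT libraries and at 1134 to 2328 in KO libraries, so every KO library held less than any WT library. Scaling by library totals leaves out the adjustment to an effective library size. It shifted log2 fold changes, from those on the effective library size, by a median of 0.81 with each drug in WT. In KO the median shift was -0.35 with Wy and 0.04 with fenofibrate. Scaled so, 46 members were higher and 3 lower with Wy in WT, and 45 higher and 2 lower with fenofibrate. Of all 14241 genes 10156 were then called with Wy and 10396 with fenofibrate, in either direction. The counts on library totals in WT given below stand beside these. WT fenofibrate library 1 was the highest of its group for most core subunits, and KO fenofibrate library 3 the lowest of its group for most. Values in the text follow the order of libraries 1, 2 and 3 in each group.

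All 31 tested loci of the constitutive core and cap rose with both drugs, by a median of 0.69 with Wy (range 0.43 to 1.66) and 0.84 with fenofibrate (range 0.43 to 1.61). In KO liver none of the 31 was called with either drug, with medians of -0.16 and 0.04. Few genes of any kind were called there, 34 of all 14241 with Wy and 220 with fenofibrate. In the alpha ring, the gate of the core through which substrates enter, 7 of 7 rose with both. Psma5 (GeneId 26442, chr3:108256926-108279980, plus strand, all positions on mm10) led the ring. It stood at 33.3, 29.7 and 31.3 CPM in WT control, 62.2, 66.4 and 64.3 with Wy and 79.6, 64.3 and 65.1 with fenofibrate. In KO liver Psma5 stood at 26.2, 26.3 and 26.9 CPM on control diet, 21.6, 19.4 and 24.4 with Wy and 29.2, 34 and 22.4 with fenofibrate. Every treated WT library lay above every other library. Psma5 rose by 1.03 ± 0.12 with Wy (adjusted p = 2.48e-06) and 1.15 ± 0.12 with fenofibrate (adjusted p = 7.34e-07). Psma3 rose least in the ring. It stood at 70.2, 58.6 and 66.1 CPM in WT control, 93.6, 92.4 and 90.2 with Wy and 112, 89.2 and 86.2 with fenofibrate. The KO libraries held Psma3 at 62.8, 64.6 and 63.9 CPM on control diet, 54.2, 50.6 and 69.2 with Wy and 68.3, 77.6 and 56.1 with fenofibrate. The treated WT libraries did not overlap the WT controls, and KO libraries of the 3 diets overlapped one another. Its changes in WT were 0.50 ± 0.13 (adjusted p = 0.00452) and 0.56 ± 0.13 (adjusted p = 0.00199). The other 5 alpha subunits changed by 0.62 to 0.82 with Wy and by 0.63 to 0.96 with fenofibrate.

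**Figure D1:**
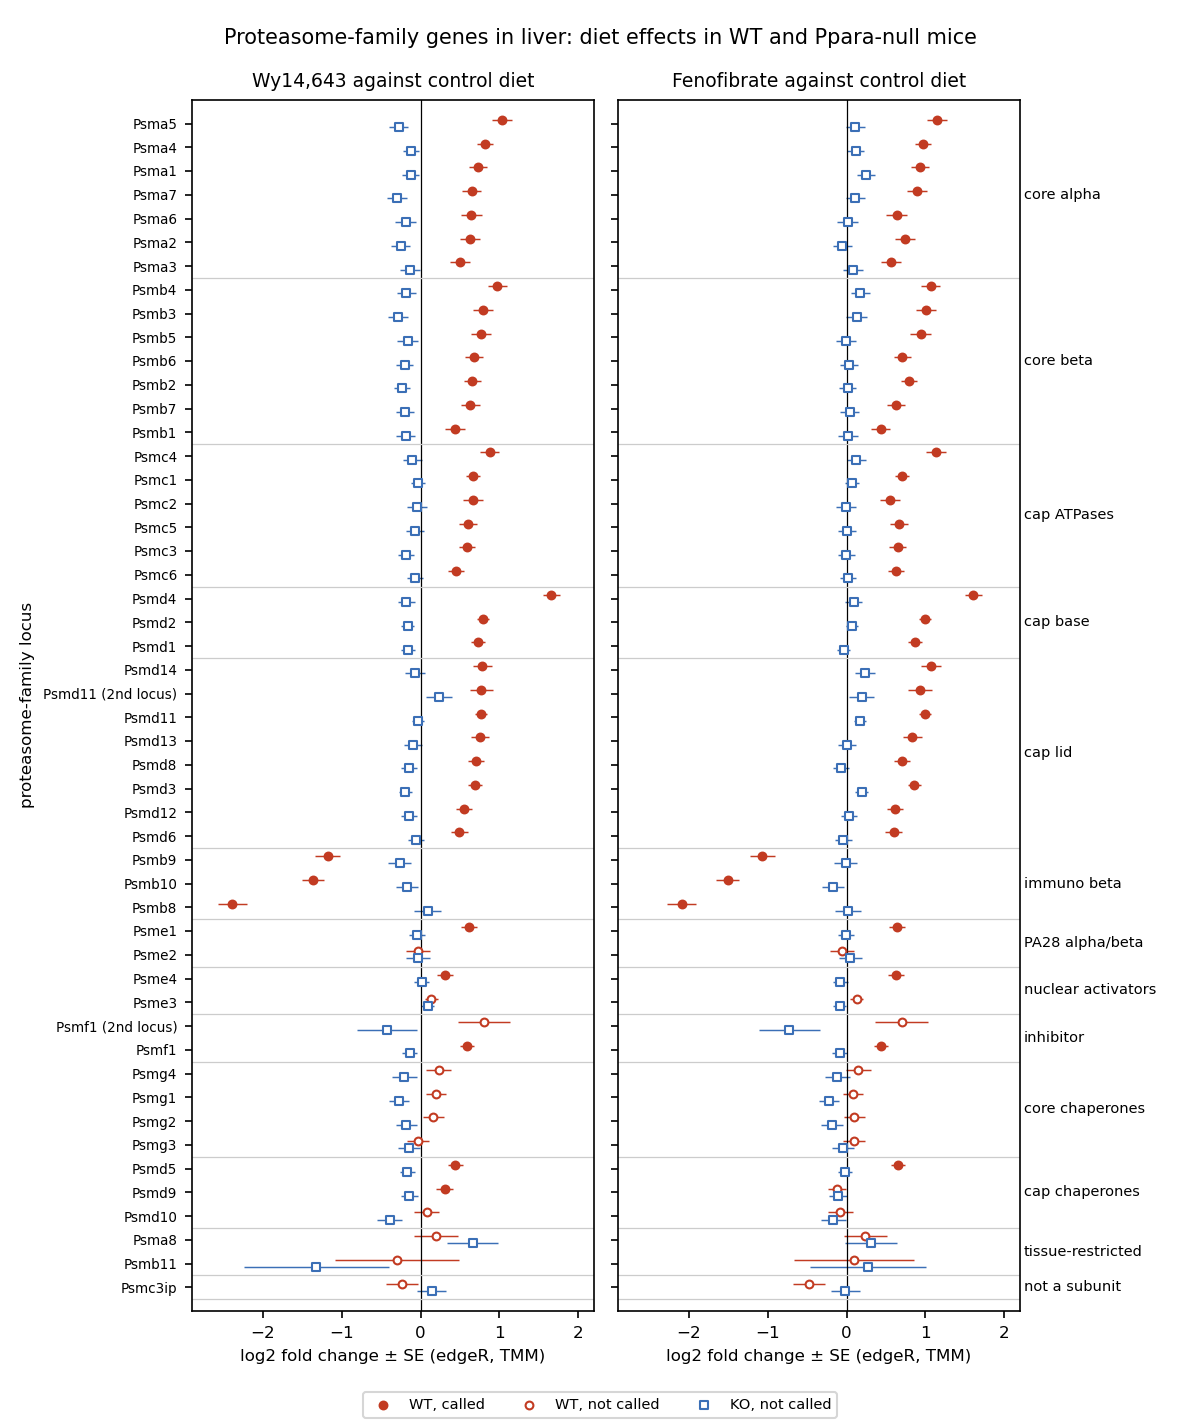
Log2 fold change ± SE (x axis) of each of the 50 tested loci (y axis, grouped by role) with Wy (left) and fenofibrate (right), in WT (circles) and KO (squares); filled symbols passed the adjusted threshold. Constitutive core and cap loci lie between 0.43 and 1.66 in WT, the 3 immunoproteasome subunits between -2.39 and -1.07, and 0 KO symbols are filled. Of all 14241 genes 34 were called in KO with Wy and 220 with fenofibrate.

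The 7 constitutive beta subunits rose with both drugs as well. Psmb4 (GeneId 19172, chr3:94884093-94886961, minus strand), a structural subunit of the ring, rose most. It stood at 64.2, 55.9 and 58.5 CPM in WT control, 118, 118 and 116 with Wy and 139, 117 and 119 with fenofibrate. In KO liver Psmb4 read 57.5, 59.6 and 53 CPM on control diet, 48.6, 45.5 and 56.1 with Wy and 66.2, 74.8 and 50.9 with fenofibrate. The treated WT libraries were all at 116 CPM or more and every other library at 74.8 CPM or less. Psmb4 rose by 0.98 ± 0.12 (adjusted p = 2.74e-06) with Wy and 1.07 ± 0.12 (adjusted p = 9.79e-07) with fenofibrate. Psmb1, also structural, rose least. Its levels were 65.4, 55 and 58.6 CPM in WT control, 82.3, 79.4 and 80.03 with Wy and 90.3, 72.2 and 78.7 with fenofibrate. KO libraries held Psmb1 at 58.1, 61.4 and 59.9 CPM on control diet, 48.6, 47.6 and 61 with Wy and 64, 69.4 and 47.9 with fenofibrate, and the 3 diets overlapped in KO. All treated WT libraries again lay above the rest. Psmb1 rose by 0.43 ± 0.12 (adjusted p = 0.00985) and 0.43 ± 0.12 (adjusted p = 0.0108), and the fenofibrate call was lost without WT control library 2 (0.38) or WT fenofibrate library 1 (0.34).

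The protease subunits of the constitutive core and their interferon-induced replacements moved apart. Psmb5 (GeneId 19173, chr14:54614120-54618014, minus strand) carries the chymotrypsin-like site. Its level was 22.8, 19.9 and 20.2 CPM in WT control, 37.5, 36.7 and 33 with Wy and 45.4, 35.8 and 39.4 with fenofibrate. In KO liver Psmb5 was at 20.4, 21.8 and 20.05 CPM on control diet, 17.9, 16.2 and 21.5 with Wy and 23.2, 22.7 and 16.1 with fenofibrate. The 6 treated WT libraries were the 6 highest of all 18. Psmb5 rose by 0.77 ± 0.13 (adjusted p = 0.000131) with Wy and by 0.94 ± 0.13 (adjusted p = 1.56e-05) with fenofibrate.

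Psmb8 (GeneId 16913, chr17:34197790-34201454, plus strand), also known as LMP7, takes the place of Psmb5. It stood at 8.0, 6.6 and 7.32 CPM in WT control and at 1.41, 1.4 and 1.37 with Wy and 2.02, 1.46 and 1.65 with fenofibrate. In KO liver Psmb8 stood at 9.3, 9.65 and 9.19 CPM on control diet, 8.22, 9.92 and 11.8 with Wy and 11.7, 10.3 and 6.56 with fenofibrate. The 6 treated WT libraries were all at or below 2.02 CPM and the other 12 all at or above 6.56 CPM. Psmb8 fell with Wy (-2.39 ± 0.18, adjusted p = 6.92e-09), to a fold of 0.191, and with fenofibrate (-2.09 ± 0.18, adjusted p = 3.93e-08), to a fold of 0.234. On library totals the values were -1.58 with Wy (adjusted p = 7.56e-08) and -1.29 with fenofibrate (adjusted p = 1.05e-06).

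Psmb6 (GeneId 19175, chr11:70525324-70527858, plus strand) carries the caspase-like site. It stood at 54.4, 47.8 and 51.3 CPM in WT control, 80.7, 82.2 and 82.9 with Wy and 91.6, 77.6 and 81.3 with fenofibrate. In KO liver Psmb6 stood at 50.5, 52.5 and 46.4 CPM on control diet, 41.5, 39.3 and 49.2 with Wy and 55.1, 55.7 and 41.5 with fenofibrate. Treated WT libraries again lay above all others. The rises were 0.68 ± 0.11 (adjusted p = 8.06e-05) and 0.71 ± 0.11 (adjusted p = 5.57e-05). Its replacement is Psmb9 (GeneId 16912, chr17:34181988-34187764, minus strand), or LMP2. Psmb9 stood at 3.91, 3.68 and 3.44 CPM in WT control, 1.82, 1.65 and 1.4 with Wy and 2.06, 1.69 and 1.5 with fenofibrate. In KO liver Psmb9 stood at 4.34, 4.51 and 4.28 CPM on control diet, 3.07, 3.77 and 4.11 with Wy and 4.73, 4.97 and 3.34 with fenofibrate. All treated WT libraries were below all others. Psmb9 fell with Wy (-1.18 ± 0.16, adjusted p = 8.62e-06) and with fenofibrate (-1.07 ± 0.16, adjusted p = 2.71e-05). On library totals the values were -0.37 with Wy (adjusted p = 0.0472) and -0.27 with fenofibrate, which no longer passed (adjusted p = 0.14). Psmb9 shares 212 bases with Tap1 on the other strand, and it is not given whether counting used strand, so reads in that stretch may belong to either gene.

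Psmb7 (GeneId 19177, chr2:38588036-38644087, minus strand) carries the trypsin-like site. It stood at 70.5, 65.2 and 66.4 CPM in WT control, 101, 105 and 107 with Wy and 117, 94.1 and 101 with fenofibrate. In KO liver Psmb7 stood at 62.5, 67 and 61.3 CPM on control diet, 52.9, 50.5 and 63.2 with Wy and 69.5, 74.8 and 51.8 with fenofibrate. Treated WT libraries were the highest of the 18. Psmb7 rose by 0.63 ± 0.12 (adjusted p = 0.00033) and 0.63 ± 0.12 (adjusted p = 0.000373). Psmb10 (GeneId 19171, chr8:105935728-105938454, minus strand), or MECL-1, replaces it. Psmb10 stood at 11.2, 8.59 and 10.2 CPM in WT control, 3.92, 3.57 and 4.18 with Wy and 3.54, 3.14 and 3.86 with fenofibrate. In KO liver Psmb10 stood at 12.9, 13.8 and 11.3 CPM on control diet, 10.8, 10.9 and 12.1 with Wy and 12.4, 12.9 and 8.45 with fenofibrate. The treated WT libraries lay below all others. Psmb10 fell with Wy (-1.36 ± 0.14, adjusted p = 4.37e-07) and with fenofibrate (-1.51 ± 0.14, adjusted p = 1.43e-07). On library totals the values were -0.55 (adjusted p = 0.00603) and -0.69 (adjusted p = 0.001).

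**Figure D2:**
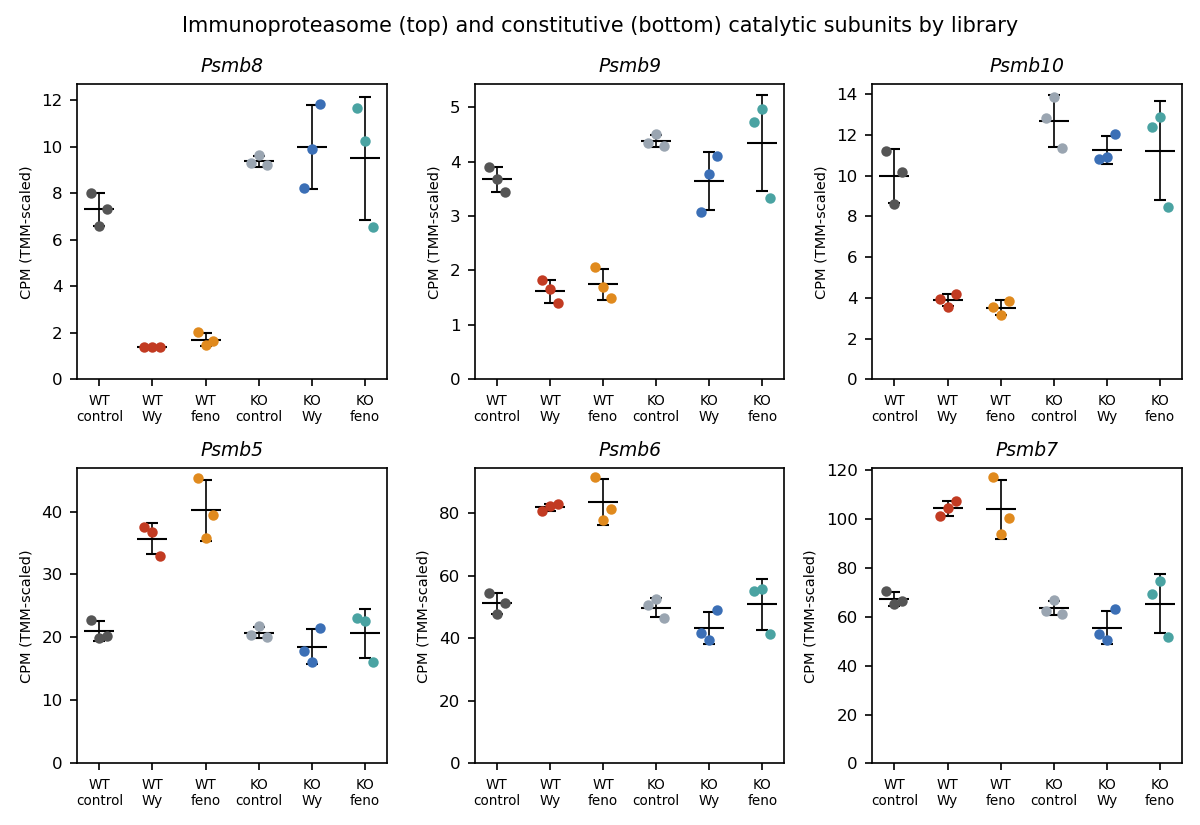
CPM (y axis) of the 3 immunoproteasome subunits (top) and the constitutive subunits they replace (bottom) in each of 18 libraries by group, with mean and SD (n = 3). In WT liver the treated libraries lie below the controls in the top row, as for Psmb8 at 1.37 to 2.02 against 6.60 to 8.00 CPM, and above them in the bottom row.

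A ratio of partners within a library does not depend on the scaling of libraries. Psmb8 had 35.1, 33.2 and 36.2 counts per 100 of Psmb5 in WT control, 3.76, 3.83 and 4.15 with Wy and 4.45, 4.08 and 4.17 with fenofibrate. In KO liver the same ratio was 45.5, 44.3 and 45.9 on control diet, 45.9, 61.3 and 54.9 with Wy and 50.4, 45.3 and 40.7 with fenofibrate. The ratio was lower in each of the 6 treated WT libraries than in any other library. It went from 34.8 ± 1.54 to 3.91 ± 0.210 with Wy and 4.23 ± 0.195 with fenofibrate (SD, n = 3 each), or 8.88-fold and 8.21-fold lower as a mean of log values. Psmb9 per 100 counts of Psmb6 went from 7.2 ± 0.489 in WT control to 1.98 ± 0.284 with Wy and 2.09 ± 0.216 with fenofibrate (3.64-fold and 3.45-fold lower). Psmb10 per 100 counts of Psmb7 went from 14.8 ± 1.45 to 3.72 ± 0.275 with Wy and 3.4 ± 0.417 with fenofibrate (3.97-fold and 4.37-fold lower). In KO liver these 2 ratios were 8.81 ± 0.370 and 19.9 ± 1.23 on control diet, 8.44 ± 1.09 and 20.4 ± 1.26 with Wy, and 8.52 ± 0.436 and 17.1 ± 0.752 with fenofibrate. All 6 differences in WT reached p = 0.1 in the two-sided exact permutation test, the smallest that 3 against 3 libraries allow, or 0.136 after adjustment over 15 such tests, so this test cannot pass 0.05 here. On control diet the 3 ratios were higher in KO than in WT by 0.38, 0.29 and 0.43 log2 units, with libraries that did not overlap (exact permutation p = 0.1 each, adjusted 0.136). In KO the ratios moved by -0.22 to 0.25 log2 units with the drugs, with p = 0.1 for Psmb8 with Wy (0.25) and Psmb10 with fenofibrate (-0.22) and 0.4 to 1 for the rest (exact permutation tests).

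**Figure D3:**
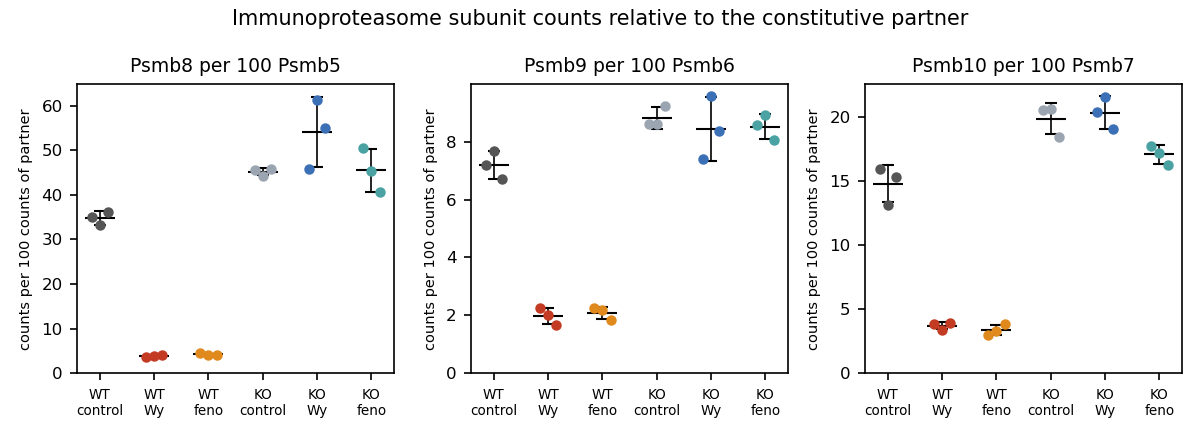
Counts of each immunoproteasome subunit per 100 counts of the constitutive subunit it replaces (y axis) in each library by group, with mean and SD (n = 3). The 6 treated WT libraries lie at 3.76 to 4.45 for Psmb8 per 100 Psmb5, against 33.2 to 36.2 in WT control and 40.7 to 61.3 in KO.

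Per kilobase of the length deposited for each locus, the immunoproteasome subunits were the minor form in every group. In WT control the level of Psmb8 was 2.71 CPM per kilobase against 23.6 for Psmb5. Psmb9 stood at 1.0 against 26.4 for Psmb6, and Psmb10 at 6.43 against 19.5 for Psmb7. With Wy the levels per kilobase were 0.518, 0.443 and 2.5 for Psmb8, Psmb9 and Psmb10. The tissue-restricted core subunits were near 0. Psma8, an alpha subunit of testis, stood at 0.613, 0.441 and 0.510 CPM in WT control, 0.509, 0.538 and 0.750 with Wy and 0.560, 0.724 and 0.573 with fenofibrate. In KO liver Psma8 stood at 0.147, 0.277 and 0.216 CPM on control diet, 0.364, 0.266 and 0.377 with Wy and 0.325, 0.335 and 0.139 with fenofibrate, below every WT library. Psmb11, the beta subunit of the thymus cortex, stood between 0.0108 and 0.147 CPM over the 18 libraries, or 1 to 17 counts each, with overlap of all groups. Neither was called with a drug in either genotype.

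The cap base holds 6 ATPases that unfold substrates, and 6 of 6 rose with both drugs. Psmc4 (GeneId 23996, chr7:28041702-28050101, minus strand) led them. It stood at 35, 32.1 and 33.1 CPM in WT control, 62.7, 62.7 and 59 with Wy and 79.1, 73.6 and 67.2 with fenofibrate. In KO liver Psmc4 stood at 31.4, 31.2 and 30.9 CPM on control diet, 28.1, 26 and 32.9 with Wy and 39.5, 36.3 and 26.1 with fenofibrate. Every fenofibrate library of WT lay above every Wy library, and both above all others. Psmc4 rose by 0.88 ± 0.12 (adjusted p = 1.22e-05) and 1.13 ± 0.12 (adjusted p = 6.25e-07). Psmc6 rose least with Wy. It stood at 33.7, 32.4 and 36 CPM in WT control, 43.7, 48.9 and 47.1 with Wy and 60.1, 49.2 and 48.9 with fenofibrate. In KO liver Psmc6 stood at 34, 33.7 and 34.3 CPM on control diet, 32.8, 29.8 and 34.6 with Wy and 36.3, 37.9 and 29.4 with fenofibrate. Treated WT libraries did not overlap the others. Its rises were 0.45 ± 0.10 (adjusted p = 0.00165) and 0.63 ± 0.10 (adjusted p = 7.38e-05). The other ATPases, Psmc1, Psmc2, Psmc3 and Psmc5, rose by 0.59 to 0.67 with Wy and by 0.55 to 0.70 with fenofibrate.

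Psmd4 (GeneId 19185, chr3:95032688-95042614, minus strand), a ubiquitin receptor of the cap also known as Rpn10, had the largest rise of all members. It stood at 32.9, 33 and 35.7 CPM in WT control, 107, 107 and 108 with Wy and 114, 97 and 98.9 with fenofibrate. In KO liver Psmd4 stood at 33.6, 36.6 and 32.9 CPM on control diet, 30.6, 27.1 and 33.3 with Wy and 37.4, 41.9 and 30.3 with fenofibrate. The treated WT libraries lay at 97.0 CPM or more and all others at 41.9 CPM or less. Psmd4 rose by 1.66 ± 0.11 with Wy (adjusted p = 6.9e-10), a fold of 3.16, and by 1.61 ± 0.11 with fenofibrate (adjusted p = 1.23e-09), a fold of 3.04. Its promoter, shown above, held no TGACNNNGC. Psmd1, a scaffold of the base, rose least of the 3 non-ATPase base subunits with Wy. Psmd1 stood at 47.8, 53.7 and 51.4 CPM in WT control, 85.5, 85.8 and 82 with Wy and 95.4, 95 and 89.1 with fenofibrate. In KO liver Psmd1 stood at 51.1, 48.6 and 52.6 CPM on control diet, 44.2, 47.9 and 44.4 with Wy and 54.6, 51.1 and 42.7 with fenofibrate. Treated and other WT libraries did not overlap. It rose by 0.73 ± 0.09 (adjusted p = 1.96e-06) and 0.87 ± 0.09 (adjusted p = 2.25e-07). Its locus shares 5659 bases with Armc9 on the same strand, which held 72 to 387 counts. The scaffold Psmd2 rose by 0.79 ± 0.08 and 1.00 ± 0.08.

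In the lid, which takes ubiquitin chains off substrates, 8 of 8 tested loci rose with both drugs. Psmd14 (GeneId 59029, chr2:61711694-61800376, plus strand), the deubiquitinase of the lid, led with Wy. It stood at 20.3, 18.7 and 20.3 CPM in WT control, 32.9, 36 and 33.3 with Wy and 48.4, 38.8 and 36.9 with fenofibrate. In KO liver Psmd14 stood at 17, 17.2 and 15.6 CPM on control diet, 16.4, 14.4 and 16.6 with Wy and 23, 20.2 and 15.3 with fenofibrate. All treated WT libraries lay above all others. Psmd14 rose by 0.79 ± 0.12 (adjusted p = 6.04e-05) and 1.07 ± 0.13 (adjusted p = 1.97e-06). Psmd6 rose least. It stood at 25.1, 23 and 22.6 CPM in WT control, 32.3, 34 and 33.2 with Wy and 39, 33.8 and 34 with fenofibrate. In KO liver Psmd6 stood at 24, 25.4 and 23.2 CPM on control diet, 23.3, 20.9 and 25.6 with Wy and 24.1, 26.8 and 19.7 with fenofibrate. Treated WT libraries again stood above all others. Psmd6 rose by 0.49 ± 0.10 (adjusted p = 0.000921) and 0.59 ± 0.10 (adjusted p = 0.000169). The other lid genes were structural subunits. Psmd3 rose by 0.69 and 0.86 with Wy and fenofibrate, Psmd8 by 0.71 and 0.70, Psmd11 by 0.77 and 1.00, Psmd12 by 0.55 and 0.61, and Psmd13 by 0.75 and 0.84. Psmd13 shares 342 bases with Sirt3 on the other strand. The second Psmd11 locus, which overlaps the first on the other strand by 561 bases, rose by 0.77 and 0.93. Psmd7, at 0 inside Nfat5, was not measured.

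Summed over a class, the alpha ring went from 302 ± 21.1 CPM in WT control to 490 ± 3.69 with Wy and 533 ± 67.1 with fenofibrate (SD, n = 3 each). The constitutive beta ring went from 317 ± 20.04 CPM in WT control to 517 ± 2.41 with Wy and 544 ± 57.1 with fenofibrate. The sums of the ATPases, the other base subunits and the lid stood at 372 ± 1.24, 320 ± 5.25 and 357 ± 10.1 CPM with Wy, against 238 ± 6.32, 159 ± 8.78 and 222 ± 2.32 in WT control. In each of these classes the treated WT libraries did not overlap the 12 others. These sums are descriptions and were not tested.

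**Figure D4:**
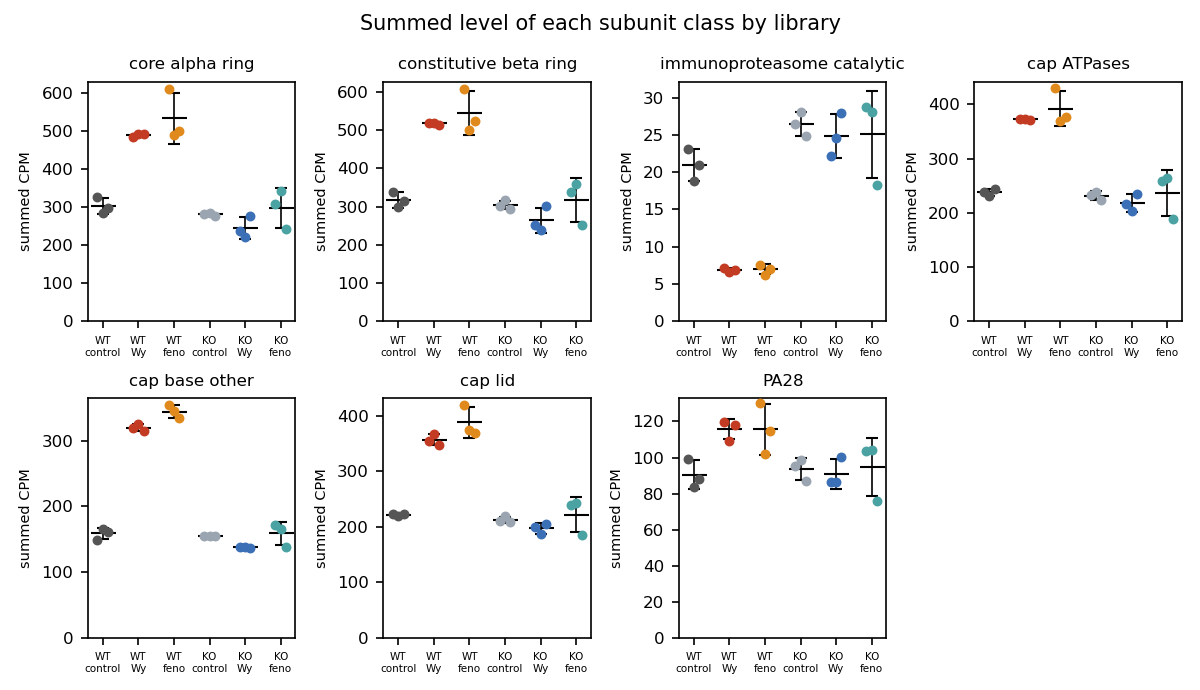
Summed CPM of the loci of each class (y axis) in each of 18 libraries by group, with mean and SD (n = 3). The treated WT libraries lie above the others in the core, ATPase, base and lid classes, below them for the immunoproteasome subunits, at 6.29 to 7.62 against 18.3 CPM or more, and above WT control for PA28.

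Activators and the inhibitor of the core did not move as 1 group. Psme1 and Psme2 encode PA28 alpha and beta, which form a ring on the core and are induced by interferon like the immunoproteasome. Psme1 (GeneId 19186, chr14:55578123-55581529, plus strand) stood at 52, 45.9 and 49.4 CPM in WT control, 78, 71.5 and 76.7 with Wy and 83.2, 69.2 and 76.2 with fenofibrate. In KO liver Psme1 stood at 52.7, 54.8 and 46.9 CPM on control diet, 47.3, 49.8 and 52.6 with Wy and 55.1, 55.3 and 42.8 with fenofibrate. Treated WT libraries were the 6 highest. Psme1 rose by 0.62 ± 0.10 (adjusted p = 9.17e-05) and 0.63 ± 0.10 (adjusted p = 7.54e-05). Its partner Psme2 (GeneId 19188, chr14:55587438-55591541, minus strand) stood at 47.3, 37.7 and 38.9 CPM in WT control, 41.8, 37.8 and 41.4 with Wy and 47.1, 33 and 38.8 with fenofibrate. In KO liver Psme2 stood at 42.6, 43.8 and 39.8 CPM on control diet, 39.1, 36.4 and 48 with Wy and 48.8, 48.7 and 33.2 with fenofibrate. The 6 groups overlapped. Psme2 changed by -0.03 ± 0.15 with Wy (adjusted p = 0.883) and -0.06 ± 0.15 with fenofibrate (adjusted p = 0.786), and on library totals, which move the median gene by 0.81, it stood at 0.78 and 0.74 and was called.

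Psme3 and Psme4 encode activators of nuclear proteasomes, PA28 gamma and PA200. Psme4 stood at 39.5, 48.1 and 44.3 CPM in WT control, 53.6, 58.3 and 51.6 with Wy and 64.6, 75.2 and 63.9 with fenofibrate. In KO liver Psme4 stood at 45.7, 43.1 and 47.3 CPM on control diet, 48.1, 46.5 and 42.9 with Wy and 47.2, 38.6 and 43.1 with fenofibrate. The WT groups followed one another without overlap, with fenofibrate highest. Psme4 rose by 0.31 ± 0.10 with Wy (adjusted p = 0.0157) and 0.63 ± 0.10 with fenofibrate (adjusted p = 4.64e-05), and without WT control library 1 the Wy value was 0.24 and no longer called. Psme3 stood at 19.1, 19.4 and 17.3 CPM in WT control, 20.5, 20.6 and 20.3 with Wy and 20.6, 20.4 and 20.1 with fenofibrate. In KO liver Psme3 stood at 18.5, 16.9 and 16.6 CPM on control diet, 19.3, 18.7 and 17.4 with Wy and 17.4, 17.2 and 14.4 with fenofibrate. The treated WT libraries lay just above WT control, but the changes of 0.14 ± 0.08 and 0.13 ± 0.08 did not pass (adjusted p = 0.197 and 0.234).

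Psmf1 (GeneId 228769, chr2:151715812-151744191, minus strand) encodes PI31, a protein that inhibits the core in the test tube. Its main locus stood at 10.1, 10.4 and 12.5 CPM in WT control, 17.6, 15.9 and 16.3 with Wy and 15.2, 14.7 and 14.8 with fenofibrate. In KO liver Psmf1 stood at 9.32, 7.76 and 9.01 CPM on control diet, 7.42, 8.38 and 7.92 with Wy and 8.58, 7.91 and 8.05 with fenofibrate. The 3 WT groups and the KO libraries formed steps, with Wy highest, then fenofibrate, WT control and KO. Psmf1 rose by 0.59 ± 0.09 with Wy (adjusted p = 4.12e-05) and 0.44 ± 0.09 with fenofibrate (adjusted p = 0.000911). The locus shares 2615 bases with Tmem74b on the other strand. The second Psmf1 locus, on that strand inside Tmem74b, held 5 to 25 counts a library. It stood at 0.111, 0.0513 and 0.139 CPM in WT control, 0.196, 0.163 and 0.166 with Wy and 0.187, 0.126 and 0.173 with fenofibrate. In KO it lay between 0.0434 and 0.103 CPM over the 9 libraries. Its WT control libraries overlapped the fenofibrate ones, and it was not called with either drug (0.81 ± 0.33 and 0.70 ± 0.33).

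The assembly chaperones put the complex together and leave it. The 4 chaperones of the core were not called with a drug in either genotype. On library totals, which shift the median gene by 0.81, each of the 4 was called higher with both drugs in WT (0.78 to 1.03). Psmg1 stood at 8.23, 6.83 and 7.92 CPM in WT control, 9.11, 8.19 and 9.1 with Wy and 9.3, 6.98 and 8.03 with fenofibrate. In KO liver Psmg1 stood at 7.42, 8.11 and 7.83 CPM on control diet, 6.36, 5.32 and 7.67 with Wy and 6.56, 7.41 and 5.98 with fenofibrate. Its changes in WT were 0.20 ± 0.13 and 0.08 ± 0.13. Psmg1 pairs with Psmg2 in building the alpha ring. Psmg2 stood at 5.88, 5.12 and 5.49 CPM in WT control, 6.83, 5.31 and 6.28 with Wy and 6.91, 5.32 and 5.43 with fenofibrate. In KO liver Psmg2 stood at 4.38, 4.67 and 4.97 CPM on control diet, 4.22, 3.59 and 4.55 with Wy and 4.59, 4.35 and 3.42 with fenofibrate, and its changes in WT were 0.16 ± 0.13 and 0.10 ± 0.13. WT control and treated libraries overlapped for both genes. The second pair is Psmg3 and Psmg4. Psmg3 stood at 4.12, 3.77 and 3.92 CPM in WT control, 3.95, 3.63 and 3.97 with Wy and 4.83, 3.69 and 4.06 with fenofibrate. In KO liver Psmg3 stood at 4.0, 3.43 and 3.34 CPM on control diet, 3.64, 2.69 and 3.4 with Wy and 3.41, 4.22 and 2.81 with fenofibrate. Its changes of -0.03 ± 0.14 and 0.09 ± 0.14 in WT were smaller than their SE. Psmg4 stood at 1.53, 1.31 and 1.48 CPM in WT control, 1.81, 1.58 and 1.68 with Wy and 1.98, 1.23 and 1.57 with fenofibrate. In KO liver Psmg4 stood at 1.45, 1.72 and 1.63 CPM on control diet, 1.25, 1.33 and 1.58 with Wy and 1.35, 1.67 and 1.4 with fenofibrate. With changes of 0.23 ± 0.16 and 0.15 ± 0.16 in WT, the adjusted p was 0.275 and 0.501, and for the other core chaperones it lay between 0.231 and 0.886.

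The 3 cap chaperones differed from one another. Psmd5, which holds the ATPases during assembly of the base, stood at 10.4, 11.3 and 11.8 CPM in WT control, 15, 15.9 and 14.5 with Wy and 18.9, 16.2 and 17.3 with fenofibrate. In KO liver Psmd5 stood at 11.4, 10.7 and 10.4 CPM on control diet, 9.54, 9.22 and 10.3 with Wy and 11.4, 11.4 and 9.38 with fenofibrate. The WT groups did not overlap. Psmd5 rose by 0.44 ± 0.09 (adjusted p = 0.000733) and 0.65 ± 0.09 (adjusted p = 1.38e-05). Psmd9 stood at 14.6, 13.7 and 14.1 CPM in WT control, 17.2, 17 and 18.2 with Wy and 13.8, 12.2 and 12.9 with fenofibrate. In KO liver Psmd9 stood at 20.2, 22.3 and 20.3 CPM on control diet, 18.9, 16.4 and 21.6 with Wy and 15.9, 22.5 and 19.9 with fenofibrate. Wy libraries lay above and fenofibrate libraries mostly below the WT controls. Psmd9 rose by 0.31 ± 0.11 with Wy (adjusted p = 0.0392) and changed by -0.13 ± 0.11 with fenofibrate (adjusted p = 0.418). The Wy call was lost without any 1 of the 3 WT control libraries or without Wy library 1 or 3, at 0.29 to 0.36. Psmd10, or gankyrin, stood at 3.58, 3.02 and 3.19 CPM in WT control, 3.45, 3.09 and 3.79 with Wy and 3.5, 2.67 and 3.1 with fenofibrate. In KO liver Psmd10 stood at 3.0, 3.39 and 3.58 CPM on control diet, 2.24, 2.32 and 3.07 with Wy and 3.14, 3.51 and 2.24 with fenofibrate. WT groups overlapped, and its changes of 0.08 ± 0.16 and -0.08 ± 0.16 did not pass (adjusted p = 0.738 and 0.741).

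In KO liver, 0 of the 50 tested loci were called with Wy or with fenofibrate by edgeR, DESeq2 or limma-voom. With Wy 0.133% of all genes rose and 0.105% fell in KO, and with fenofibrate 0.997% rose and 0.548% fell. At an unadjusted p under 0.05 edgeR gave 7 lower loci with Wy and 3 higher with fenofibrate. Of all 14241 genes 1998 passed this unadjusted threshold with Wy and 2165 with fenofibrate, in either direction. Of the 50 loci 44 had a negative value with Wy, with a median of -0.15, and 28 had a positive value with fenofibrate, with a median of 0.01. On library totals, which shifted the median gene by -0.35 with Wy in KO, 39 loci were called lower with Wy. Of all 14241 genes 2980 were then called with Wy, in either direction.

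The difference between genotypes was tested directly as the drug effect in KO minus that in WT. For Wy 34 loci were called lower in this test, against 14.1% of all genes, and 3 higher, against 14%. For fenofibrate 33 were lower, against 11.6% of all genes, and 3 higher, against 10.7%. The 3 higher loci were the immunoproteasome subunits in both tests. The difference was 2.48 ± 0.25 for Psmb8 (adjusted p = 5.66e-07), 0.91 ± 0.22 for Psmb9 (adjusted p = 0.00427) and 1.19 ± 0.20 for Psmb10 (adjusted p = 0.00019) with Wy. On library totals the Wy difference was 1.30 for Psmb8, -0.25 for Psmb9 and 0.03 for Psmb10, so that of Psmb9 changed sign and those of Psmb9 and Psmb10 were not called (adjusted p = 0.321 and 0.927). The fenofibrate difference was then 1.33 for Psmb8, and the 0.29 for Psmb9 and 0.55 for Psmb10 did not pass (adjusted p = 0.288 and 0.0538). Psmd4 had the largest difference the other way, at -1.84 ± 0.15 with Wy (adjusted p = 3.99e-08) and -1.52 ± 0.15 with fenofibrate (adjusted p = 6.36e-07). Of the 31 constitutive core and cap loci 30 were lower with Wy, with a median of -0.86, the second Psmd11 locus being the one not called. With fenofibrate 29 were lower, with a median of -0.77, and Psma3 (-0.48) and Psmb1 (-0.42) did not pass. The chaperone Psmg1 did not pass with Wy (-0.47 ± 0.18, adjusted p = 0.0602) but did so in DESeq2 (-0.51, adjusted p = 0.0387).

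On control diet, KO and WT differed in few members. Called higher in KO were 2 loci, against 4.28% of all genes, and called lower were 2, against 5.66%. Library totals gave 7 and 1, where 2731 of all 14241 genes were called in either direction. None of the 31 constitutive core and cap loci was called, with a median of -0.04. Psmd9 was higher in KO by 0.56 ± 0.11 (adjusted p = 0.00245), at 20.9 ± 1.2 against 14.1 ± 0.433 CPM (SD, n = 3 each). Psmf1 was lower in KO (-0.34 ± 0.09, adjusted p = 0.0229). That call was lost without WT control library 3 (-0.24) or KO control library 2 (-0.26), and on library totals the value was -0.02. Psma8 was lower in KO (-1.30 ± 0.31, adjusted p = 0.00938) on 16 to 66 counts a library, and its call was lost without KO control library 1 (-1.08). Psmc3ip, the locus that is no proteasome subunit, stood at 1.25, 1.07 and 1.22 CPM in WT control, 0.979, 1.04 and 0.986 with Wy and 1.18, 0.672 and 0.673 with fenofibrate. In KO liver Psmc3ip stood at 3.35, 3.39 and 2.98 CPM on control diet, 3.19, 3.18 and 4.4 with Wy and 3.54, 3.6 and 2.49 with fenofibrate. All 9 KO libraries lay above all 9 WT libraries, and on control diet Psmc3ip was higher in KO by 1.46 ± 0.20 (adjusted p = 4.6e-05). It overlaps Mlx on the other strand by 385 bases, so part of its counts may be those of Mlx. The immunoproteasome subunits were not called between genotypes, with 0.36 ± 0.17 for Psmb8, 0.25 ± 0.15 for Psmb9 and 0.34 ± 0.14 for Psmb10 (adjusted p = 0.221, 0.375 and 0.148). With only the 2 groups in the fit Psmb8 passed (0.36, adjusted p = 0.022), and without KO fenofibrate library 3 Psmb10 did (0.34, adjusted p = 0.041). On library totals, which shifted the median gene by 0.33 in this comparison, all 3 passed, with 0.69 for Psmb8, 0.58 for Psmb9 and 0.67 for Psmb10 (adjusted p = 0.00637, 0.0161 and 0.00875).

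**Figure D5:**
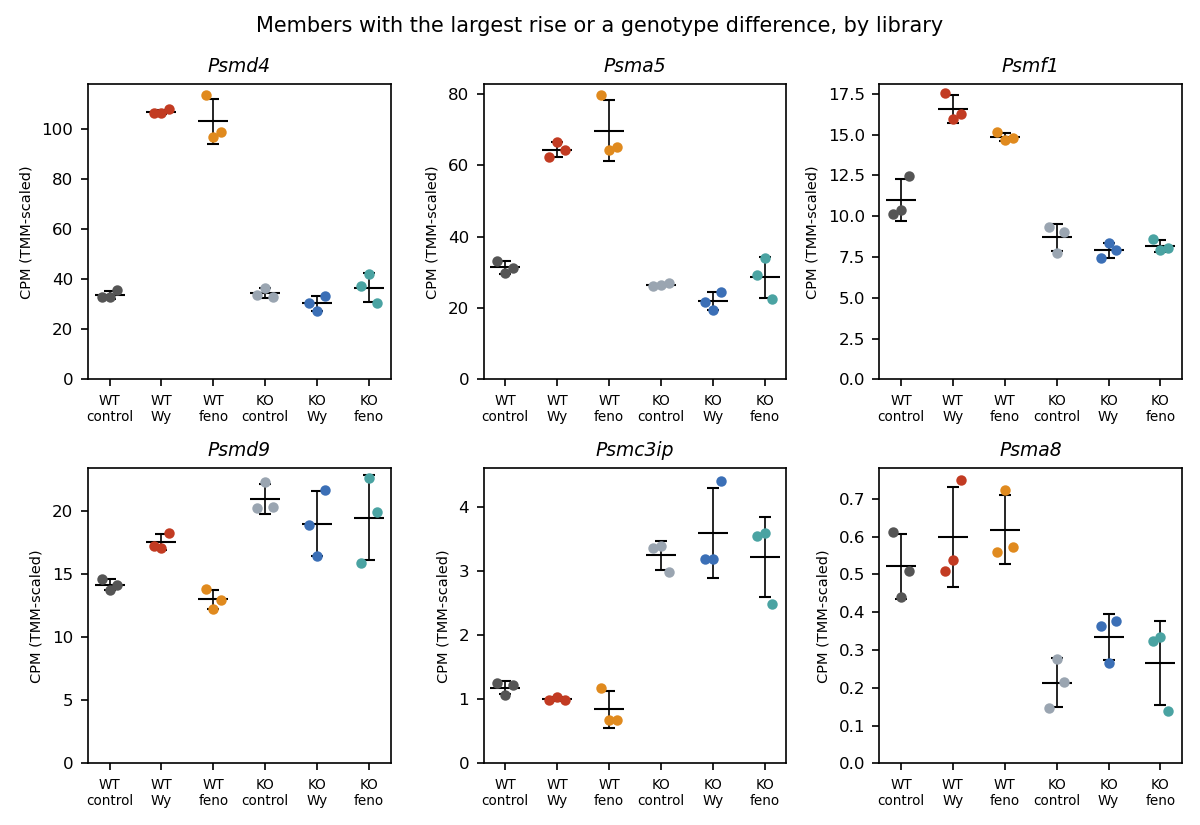
CPM (y axis) of Psmd4, Psma5, Psmf1, Psmd9, Psmc3ip and Psma8 in each of 18 libraries by group, with mean and SD (n = 3). Psmd4 and Psma5 are high only in the 6 treated WT libraries, at 97.0 to 114 and 62.2 to 79.6 CPM, whereas Psmc3ip is higher in all 9 KO libraries, at 2.49 CPM or more, than in the WT libraries.

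The 2 drugs were given at different doses, and both are shown side by side above. Set against each other in WT, 0 members were called higher and 0 lower with Wy by edgeR, against 0.323% and 0.576% of all genes. At an unadjusted p under 0.05 edgeR gave 1 higher and 6 lower, where 1753 of all 14241 genes passed in either direction. After adjustment DESeq2 called 1 higher and limma-voom 0. The 1 was Psmd9, at 0.43 ± 0.11 (adjusted p = 0.0847) in edgeR and 0.45 (adjusted p = 0.0164) in DESeq2. Psme4 followed at -0.32 ± 0.10 (adjusted p = 0.15), lower with Wy.

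Of 7 proteasome genes that the symbol rule does not take, 5 rose with Wy and 4 with fenofibrate, and 0 fell. The shares over all genes, against which this and the WT drug counts of the lists that follow are read, were 20.2% higher and 19% lower with Wy and 19.3% and 17.6% with fenofibrate. Among them were Usp14, a deubiquitinase of the cap (0.56 ± 0.08 and 0.73 ± 0.08), the ubiquitin receptor Adrm1 (0.48 ± 0.08 and 0.58 ± 0.08) and Pomp, the maturation factor of the core (0.39 ± 0.13 and 0.38 ± 0.13). Of 13 genes of NRF1 processing and partners, 6 rose and 3 fell with Wy, and 5 rose and 1 fell with fenofibrate (8 and 10 rose and 0 fell on library totals). Nfe2l1 itself rose from 31.3 ± 2.54 CPM in WT control to 61.6 ± 2.74 with Wy and 62.1 ± 8.04 with fenofibrate (SD, n = 3 each), by 0.98 ± 0.11 (adjusted p = 9.73e-07) and 0.99 ± 0.11 (adjusted p = 9.36e-07). In KO control it stood at 14.9 ± 0.67 CPM, lower than in WT control (-1.07 ± 0.11, adjusted p = 1.91e-06), and it did not move with a drug in KO past the threshold (-0.05 ± 0.11 and -0.06 ± 0.11). The median of the constitutive core and cap between genotypes on control diet was -0.04, with 0 of 31 called. Whether Nfe2l1 has a part in the levels of the subunits was not tested. Nfe2l2 rose by 0.60 ± 0.10 and 0.70 ± 0.10, and Vcp, the unfoldase that releases NRF1 from the membrane, by 0.74 ± 0.10 and 0.88 ± 0.10. Of 13 genes of ubiquitin and its shuttles 7 rose with each drug, and 1 fell with Wy, with Ubqln1 at 0.54 ± 0.09 and 0.69 ± 0.09.

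Genes of the interferon response, which induces the immunoproteasome, were lower in treated WT liver relative to the bulk of genes. Of 18 measured interferon genes 14 fell with Wy and 0 rose (median -0.98), and 11 fell and 1 rose with fenofibrate (median -0.73). Their summed level was 91.6 to 93.2 CPM in WT control, 76.0 to 80.9 with Wy and 82.8 to 93.9 with fenofibrate. Irf1, an interferon factor, fell with both (-0.88 ± 0.15 and -0.69 ± 0.15), as did Irf7 (-1.93 ± 0.19 and -1.72 ± 0.18). In KO liver 0 of these 18 were called with Wy, where 0.133% of all genes rose and 0.105% fell. With fenofibrate 5 rose in KO, against 0.997% of all genes. On control diet 9 of 18 were higher in KO than in WT (median 0.70), against 4.28% of all genes. Of 9 measured genes of class I antigen presentation 6 fell with Wy and 4 with fenofibrate, with Tap2, a peptide transporter, at -0.68 ± 0.08 and -0.65 ± 0.08. B2m, H2-D1, H2-Q4 and H2-T23 were listed at 0 counts in all libraries, though cells of every type use B2m, and were taken as not measured. These directions depend on the scaling. On library totals 3 interferon genes were higher and 6 lower with Wy, and 4 were higher and 4 lower with fenofibrate. Of the class I genes 5 were then higher and 0 lower with Wy, and 6 higher and 0 lower with fenofibrate.

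Marker lists of liver cell types are given beside these values, where 19% of all genes fell and 20.2% rose with Wy and 17.6% fell and 19.3% rose with fenofibrate. Of 11 Kupffer cell markers 10 fell with each drug in WT (medians -0.68 and -0.64), and their summed level was 80.9 to 88.8 CPM in WT control, 49.0 to 52.1 with Wy and 46.6 to 59.2 with fenofibrate. In KO it was 95.4 to 107 CPM on control diet, 119 to 147 with Wy and 87.8 to 130 with fenofibrate. There 0 markers were called with either drug, where 34 of all 14241 genes were called with Wy and 220 with fenofibrate. None of the 11 was at 0. Lymphocyte markers summed to 1.72 to 2.19 CPM in WT control, 0.82 to 1.45 with Wy and 0.86 to 1.64 with fenofibrate, and in KO to 2.19 to 3.18 CPM over the 3 diets. Of 8 tested lymphocyte markers 2 fell with Wy and 1 with fenofibrate, and Ms4a1 and Gzma were at 0. Of 7 tested markers of infiltrating myeloid cells 1 fell with each drug, of 8 stellate cell markers 5 fell with Wy and 4 with fenofibrate, and of 9 endothelial markers 2 fell and 1 rose with each. Of 11 hepatocyte markers, which were abundant in all libraries, 9 fell with each drug, and their summed level went from 51956 to 53587 CPM in WT control to 24692 to 28763 with Wy and 23016 to 24293 with fenofibrate, and lay between 40664 and 61909 CPM in KO. The counts for these lists depend on the scaling. On library totals the median of the Kupffer cell markers was 0.13 with Wy and 0.17 with fenofibrate, with 0 called. Of the stellate cell markers 3 were then higher with Wy and 4 with fenofibrate, and of the endothelial markers 5 and 7, with 0 lower in either list. Hepatocyte markers were then 3 higher and 3 lower with Wy, and 2 higher and 3 lower with fenofibrate. Lymphocyte markers had 0 called with Wy and 1 lower with fenofibrate, and myeloid markers 0 with Wy and 1 higher with fenofibrate. The part of cell composition in the changes of the immunoproteasome and of the constitutive subunits was not tested.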

How the data were processed

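Polyadenylated RNA of mouse liver was sequenced from stranded libraries in 18 samples of 6 groups, per the labels' protocols. The build mm10 and the tools TopHat2 2.0.8, Trimmomatic 0.30, bcl2fastq 2.17 and Picard 1.84 are named in the submitters' processing notes. Values are whole-number counts of reads for each locus as the authors deposited them. How reads were counted (tool, strand, overlapping loci, reads with several matches) is not given in the sources used here, so members with near-identical pseudogene copies are uncertain. Files were joined on the coordinates of 52463 loci, because loci of 1 symbol stood in 4 different orders. Left out were 12 blank or total rows and 5 columns of reads with no matching sample.

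Counts were fitted with edgeR 4.0.16 (R 4.3.3) over the 14241 genes kept by filterByExpr, with TMM scaling, 1 coefficient per group and 12 residual degrees of freedom, and tested with the quasi-likelihood F-test and Benjamini-Hochberg adjustment at 0.05. Adjusted p-values are from this fit unless library totals, DESeq2 1.42.0, fewer groups, a library left out or the permutation test is named beside them. SEs were derived as log2 fold change divided by the root of F. CPM use the TMM effective library size. Ratios of partners were tested on log2 counts with 0.5 added, by exact permutation. The script was checked on simulated counts with known changes. Alternatives were other scalings, DESeq2, limma-voom (limma 3.58.1), no filter, fewer groups, a replicate block and each library left out.

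Members, classes, marker lists and gene lists were chosen with earlier results of these data known. Values in every library are given for the catalytic pairs, Psme1 to Psme4, Psmf1, Psmg1 to Psmg4, Psmd4, Psmd5, Psmd9 and Psmd10 and for the largest and smallest Wy effect in WT of each other class of 2 or more tested loci. Replicate numbers only name pools and no source pairs them across groups. P-values measure the spread between pools. Part of the planned promoter and pathway results is not reported here.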

Additional observations from a re-analysis of the deposited data

Results flagged for a closer look

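The effect of each drug differed between genotypes by a direct test of the difference (drug effect in KO minus that in WT, edgeR, adjusted over all genes). This test called 37 members for Wy and 36 for fenofibrate, of 50 tested. Of all 14241 genes it called 4001 for Wy and 3178 for fenofibrate, in either direction. For the drugs in KO alone, 34 of all genes were called with Wy and 220 with fenofibrate. The called members whose values are given by library in the report follow here with their log2 differences.

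For Wy, the difference in the alpha ring was -1.31 for Psma5 and -0.64 for Psma3. In the constitutive beta ring it was -1.16 for Psmb4, -0.93 for Psmb5, -0.88 for Psmb6, -0.83 for Psmb7 and -0.62 for Psmb1. In the cap it was -1.84 for Psmd4, -0.98 for Psmc4, -0.89 for Psmd1, -0.86 for Psmd14, -0.55 for Psmd6 and -0.52 for Psmc6. Each of these constitutive members rose with Wy in WT and was not called in KO. The cap chaperones Psmd5 and Psmd9 stood at -0.61 and -0.45, the activator Psme1 at -0.66 and Psmf1 at -0.73. The immunoproteasome subunits stood on the other side, with 2.48 for Psmb8, 1.19 for Psmb10 and 0.91 for Psmb9. On library totals 1 member was higher in this difference, and Psmb9 and Psmb10 were not called, as given above.

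For fenofibrate, the difference was -1.04 for Psma5, -0.95 for Psmb5, -0.89 for Psmb4, -0.68 for Psmb6 and -0.59 for Psmb7 in the core. The cap subunits gave -1.52 for Psmd4, -1.01 for Psmc4, -0.91 for Psmd1, -0.84 for Psmd14, -0.64 for Psmd6 and -0.61 for Psmc6. These members too were called in WT and not in KO. Psmd5 stood at -0.67, Psme1 at -0.65, Psme4 at -0.71 and Psmf1 at -0.52. The immunoproteasome subunits stood at 2.11 for Psmb8, 1.33 for Psmb10 and 1.06 for Psmb9. Here too 1 member was higher on library totals, and Psmb9 and Psmb10 were not called.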

How the results depend on the processing

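The counts of rises and falls in WT kept within 1.5 times their value under every alternative run, with 34 to 36 rises for Wy and 34 to 35 for fenofibrate when 1 library was left out. Falls were then 3 with Wy and 3 to 4 with fenofibrate. Over all genes 4625 to 6055 were called with Wy and 4389 to 5680 with fenofibrate in these runs, in either direction. Library totals moved the most, with 39 members lower with Wy in KO, 7 higher and 1 lower in KO against WT on control diet, and 1 higher in each difference between genotypes. On library totals 2980 of all 14241 genes were called with Wy in KO and 2731 in KO against WT. In the differences between genotypes 10063 were called for Wy and 7432 for fenofibrate on library totals. There the difference for Psmb9 with Wy became -0.25 (adjusted p = 0.321). With only the groups compared in the fit, 1 member was lower in KO against WT and 1 was higher with Wy against fenofibrate, where DESeq2 also gave 1. Over all genes 1787 and 149 were then called in these 2 comparisons, and 303 by DESeq2 for Wy against fenofibrate. Leaving out 1 library gave 1 to 2 lower in KO against WT and 0 to 1 higher with Wy against fenofibrate. Over all genes 979 to 1713 and 40 to 203 were called in these runs, in either direction. In KO the log2 change in the ratio of Psmb8 to Psmb5 with fenofibrate was -0.063 against the mean of 7 beta subunits and -0.075 to 0.079 without 1 library. The Psmb9 ratio with Wy was -0.16 to 0.023 and the Psmb10 ratio with Wy -0.018 to 0.081 without 1 library. The cause was not tested. With the replicate block 36 members rose and 3 fell with Wy in WT, 35 rose and 3 fell with fenofibrate, and 33 were lower in each difference between genotypes. Of all 14241 genes 5540 were called with Wy and 5183 with fenofibrate in WT under this block. In the differences between genotypes 3874 were called for Wy and 3082 for fenofibrate under the block. There the call of Psmd9 in the Wy difference was lost (-0.45). Same-numbered libraries of different groups deviated together with r of -0.40 to 0.40 (median 0.04), against -0.39 to 0.41 (median 0.006) for other numbers. Of 18 libraries 9 matched their own number best. The numbers were not taken as pairs because no source pairs them, and these values were not the reason. Depth limits Psma8, Psmb11 and the second Psmf1 locus, at 1 to 86 counts a library.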
